A study of Mus musculus with 12 samples.

Results

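The genes described here are 56 components of the cell division cycle, from the cyclins of G1 to the proteins that pinch a dividing cell apart. They were given by name. A gene was measured where the array's annotation assigned at least 1 row of the deposited table to that gene alone, and its value on an array was the median over those rows (probesets). By that rule 55 of the 56 members were measured, among 20352 genes in all, with 792 probesets between them. The remaining member, Ccnb1, was not analysed here. The members were divided into 10 G1, 14 S phase and 31 measured mitotic genes. The MCM genes and the genes that load the MCM helicase were placed with S phase.

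RNA came from the hearts of C57BL/6J mice aged 12 weeks, and the labels name no genetic change. Tissue of the border zone, beside a myocardial infarct, was collected from 6 infarcted hearts 2 weeks after the operation, and the matching site was collected from 6 sham-operated hearts at the same time after surgery. The series text describes the 6 hearts of each condition as biological replicates, each on its own one-colour array. The labels state neither the sex of the mice nor how the infarct was made.

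The cell division cycle runs from G1 into S phase, where DNA is copied, and then into mitosis. In G1, D-type cyclins with Cdk4 or Cdk6 and E-type cyclins with Cdk2 release the E2F transcription factors. Genes of S phase are classic targets of E2F. Genes of mitosis are transcribed later, by FoxM1 with the B-Myb and MuvB complex, through a promoter element named CHR (cell cycle genes homology region), often beside CCAAT boxes bound by NF-Y. Most cardiomyocytes of the adult mouse do not divide, while fibroblasts, macrophages and endothelial cells of an injured heart can.

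The 12 arrays had close medians (6.997 to 7.026 in sham and 7.045 to 7.058 in infarcted hearts, log2 signal), but every infarcted median lay above every sham median. Pairwise correlations of the arrays over all probesets lay between 0.956 and 0.979. The defining markers of cardiomyocytes were bright on every array: the mean log2 signal of 10 such genes lay between 13.21 and 13.24 in sham and between 13.09 and 13.18 in infarcted hearts. A background range was taken from 1169 olfactory and vomeronasal receptor genes, which are silent in most tissues. The 95th percentile of their mean sham signal was 5.26, and 15 of the 55 members had a sham mean at or below it. Part of the signal of such members may be background, so their fold changes are uncertain measures of the change in RNA. With 6 arrays in each group, their number limits the precision.

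Genes of mitosis rose in the infarct border zone, while most genes of G1 and S phase showed no change past the threshold. Of 31 mitotic members, 21 rose and none fell, against 4 of 14 S phase members and 3 of 10 G1 members, among which none fell either (limma, Benjamini-Hochberg adjusted p under 0.05 over all genes). Across all genes measured, 10.1% rose and 10.2% fell, and with each array centred on its median 1748 genes rose and 2956 fell. The median difference, infarcted minus sham on the log2 scale, was 0.58 for mitotic, 0.09 for S phase and 0.05 for G1 members, beside -0.04 for all genes. Before adjustment, 25 of the 31 mitotic, 5 of the 14 S phase and 4 of the 10 G1 members had a p under 0.05 (limma). Every infarcted array lay above every sham array in 14 members, 10 of them mitotic, against 5.97% of all genes, and the reverse was true of no member against 5.29% of all genes. At least a doubling, with an adjusted p past the threshold, was found in 8 members (Anln, Mki67, Top2a, Cdk1, Bub1, Tyms, Prc1 and Ccna2) and in 1.28% of all genes. Rises were not limited to bright genes: of the 15 members with a sham mean within background 11 rose, 10 of them mitotic, beside 3.58% of the 6122 genes at that level. Of the 40 brighter members 17 rose, beside 12.9% of 14230 such genes. Whether the classes differ from each other was not tested.

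**Figure D1:**
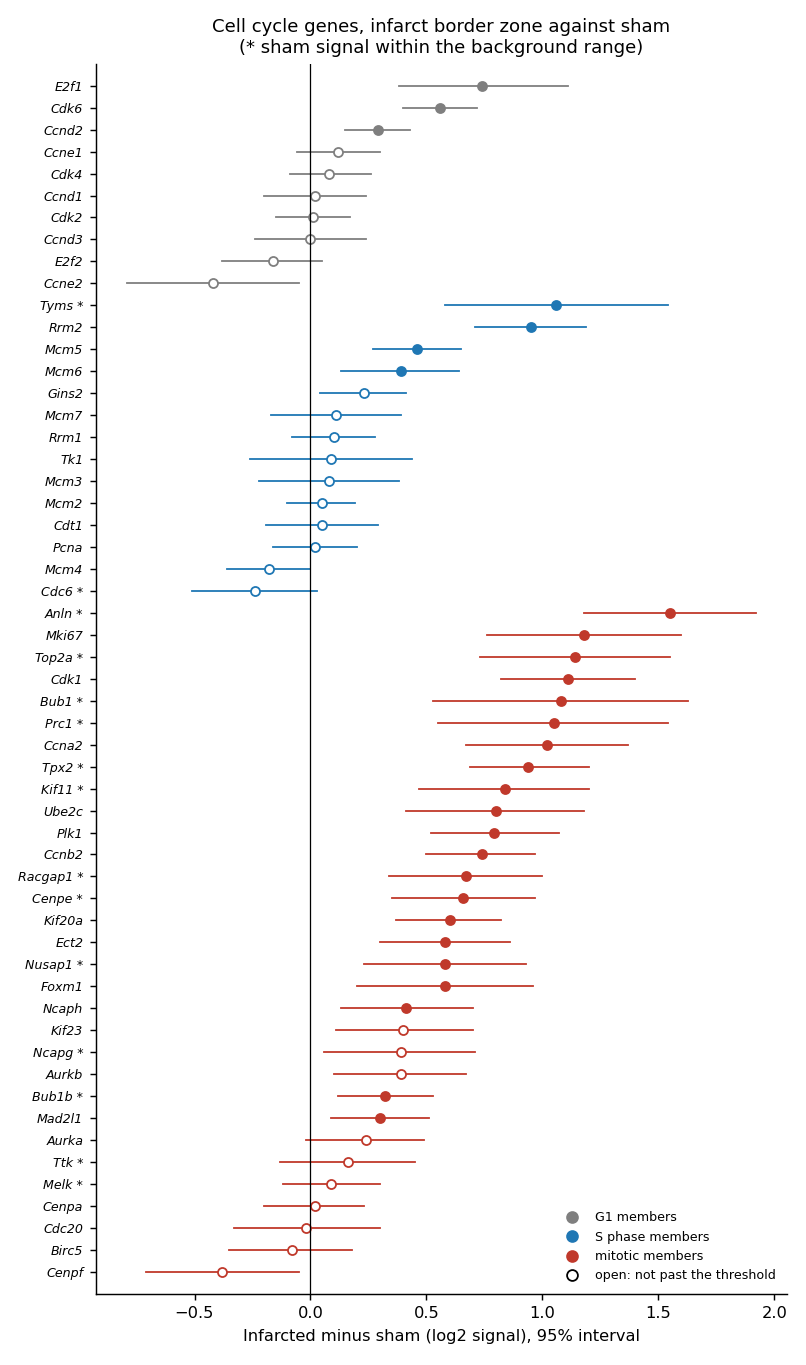
Difference between infarcted and sham hearts for the 55 measured members (x axis, log2 signal, with 95% interval from limma), grouped by phase and ordered by size within each group. Filled points passed the adjusted threshold: 21 of 31 mitotic, 4 of 14 S phase and 3 of 10 G1 members, all of them to the right of 0.

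Promoters of the S phase and mitotic members with the smallest p are shown, since genes of each phase are known to share control elements. Each stretch runs from 220 bases before to 30 bases after the transcription start given by RefSeq (GRCm38.p6), 5′ to 3′ on the gene's strand. Capitals mark matches on either strand to an E2F site (TTTCCCGC, TTTGGCGC, TTTGCCGC or TTTCGCGC), the CHR (TTTGAA) or a CCAAT box (CCAAT). Rrm2 lies at chr12:24708034-24708283 (plus strand), Mcm5 at chr8:75109289-75109538 (plus strand), Anln at chr9:22389177-22389426 (minus strand) and Cdk1 at chr10:69352883-69353132 (minus strand).
Rrm2: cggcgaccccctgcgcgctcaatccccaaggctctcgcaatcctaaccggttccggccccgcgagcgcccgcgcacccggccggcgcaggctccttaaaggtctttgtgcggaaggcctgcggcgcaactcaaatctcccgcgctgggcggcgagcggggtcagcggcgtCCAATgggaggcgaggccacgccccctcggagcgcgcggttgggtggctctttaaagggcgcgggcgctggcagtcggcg
Mcm5: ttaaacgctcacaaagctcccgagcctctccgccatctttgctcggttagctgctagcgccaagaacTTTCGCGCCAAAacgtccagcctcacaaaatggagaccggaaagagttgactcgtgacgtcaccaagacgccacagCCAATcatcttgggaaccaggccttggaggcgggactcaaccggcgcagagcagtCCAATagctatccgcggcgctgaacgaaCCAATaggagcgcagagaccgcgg
Anln: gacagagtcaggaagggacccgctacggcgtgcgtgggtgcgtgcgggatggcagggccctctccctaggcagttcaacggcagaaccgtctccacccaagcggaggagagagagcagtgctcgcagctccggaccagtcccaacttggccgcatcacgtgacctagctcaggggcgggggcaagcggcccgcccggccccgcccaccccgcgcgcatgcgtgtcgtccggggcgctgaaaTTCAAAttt
Cdk1: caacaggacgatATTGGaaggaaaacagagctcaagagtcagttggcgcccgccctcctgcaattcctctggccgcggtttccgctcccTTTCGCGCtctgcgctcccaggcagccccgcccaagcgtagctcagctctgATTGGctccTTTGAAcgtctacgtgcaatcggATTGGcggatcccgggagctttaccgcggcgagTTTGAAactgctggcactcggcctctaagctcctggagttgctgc

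Cdk1 carried all 3 kinds of match, with CHR matches at -71 and -15 (first base, counted from the start site) and CCAAT boxes on the opposite strand at -208, -80 and -48. In Mcm5 an E2F match on each strand, overlapping by 4 bases, began at -153 and -149, and 3 CCAAT boxes followed. Anln had no CCAAT box and 2 CHR matches just after the start site, the second of which crosses the end of the printed stretch. Rrm2 had a single CCAAT box, at -50, and neither of the other matches.

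Among the members as a whole, matches followed the phase. RefSeq promoter windows of 300 bases (250 before to 50 after a start site) were matched for 45 of the 55 measured members, some with more than 1 window, giving 50 windows. A CHR match stood in 21 of 28 mitotic windows (75.0%), in 1 of 13 S phase windows and in 1 of 9 G1 windows, beside 17.9% of all 32851 windows in the table. An E2F match stood in 6 of 13 S phase windows (46.2%), in 2 of 28 mitotic and in 2 of 9 G1 windows, beside 2.26% of all windows. CCAAT boxes were found in 22 of 28 mitotic and 9 of 13 S phase windows, beside 37.4% of all windows.

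Within the mitotic class the CHR match was about as frequent in members that rose as in the rest. It stood in 14 of 19 windows of members that rose (73.7%) and in 7 of 9 windows of members that did not (77.8%), the latter including Cdc20, Cenpa and Cenpf. For S phase members an E2F match stood in 2 of 4 windows of genes that rose and in 4 of 9 windows of the others. These matches describe letters in a short window and say nothing of which factor was bound.

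**Figure D2:**
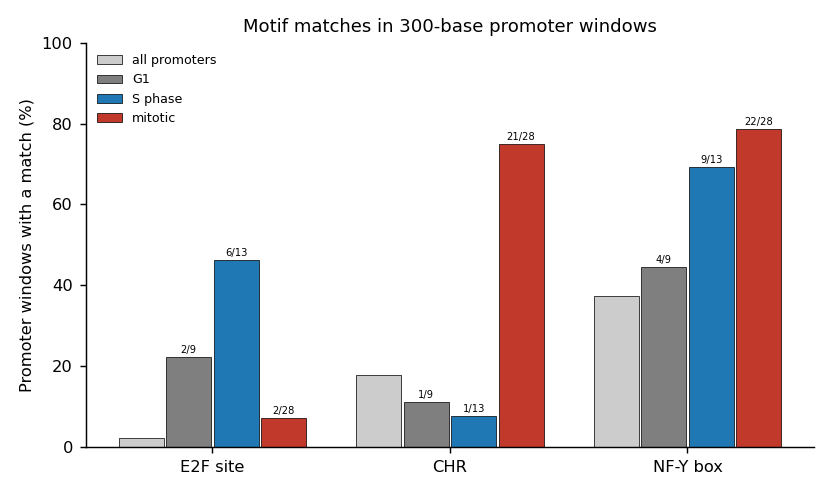
Share of RefSeq promoter windows of 300 bases that hold at least 1 match (y axis, percent) to the E2F site, the CHR or the CCAAT box bound by NF-Y, for all 32851 windows and for windows of G1, S phase and mitotic members. CHR matches reach 75.0% among mitotic windows against 17.9% of all windows, and E2F matches 46.2% among S phase windows against 2.26%.

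In G1, a catalytic partner of the D cyclins, cyclin D2 and an activating E2F rose, and cyclin D1 did not pass. Cdk6, a kinase that D-type cyclins activate, had sham arrays at 8.19, 8.44 and 8.59 (lowest, median and highest log2 signal) and infarcted arrays at 8.88, 8.99 and 9.08. The groups did not overlap, and Cdk6 rose 1.48-fold (95% interval 1.32 to 1.65, adjusted p = 0.000102, limma), with 7 of its 8 probesets called higher. Ccnd2, encoding cyclin D2, rose 1.22-fold (1.11 to 1.34), from 10.72, 10.77 and 10.9 to 10.97, 11.07 and 11.19, again without overlap (adjusted p = 0.00478, limma).

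E2f1, an activator of S phase genes, went from 5.09, 5.75 and 5.96 in sham arrays to 5.86, 6.37 and 6.7 in infarcted arrays. It rose 1.68-fold (1.3 to 2.16, adjusted p = 0.00674, limma), and 5 of 6 infarcted arrays lay above every sham array. With probesets averaged the difference of E2f1 was 0.32 in place of 0.74 (adjusted p = 0.0176, limma). Its relative E2f2 differed by -0.16 (adjusted p = 0.283, limma).

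Ccnd1, encoding cyclin D1, did not pass and its values were nearly the same in both groups. Sham arrays lay at 8.88, 9.33 and 9.45 and infarcted arrays at 8.97, 9.33 and 9.43. The difference of 0.02 had a 95% interval from -0.2 to 0.24, and none of its 8 probesets was called. Its signal was well above the background range.

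None of the other G1 kinases and cyclins passed. The interval of Ccnd3 (cyclin D3) ran from -0.24 to 0.24, that of Cdk4 from -0.09 to 0.26 and that of Cdk2 from -0.15 to 0.17. The cyclin E genes pointed in opposite directions, Ccne1 with 0.12 (adjusted p = 0.377) and Ccne2 with -0.42 (adjusted p = 0.102, limma). All 6 infarcted arrays of Ccne2 lay below its sham mean, but 4 of them lay within the sham range. When dim probesets were left out the difference of Ccne2 was 0.18 (adjusted p = 0.623, limma), so the direction of Ccne2 depended on the summary.

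Of the S phase members, the genes of nucleotide synthesis held the largest rises. Rrm2 encodes the small subunit of ribonucleotide reductase, which makes deoxynucleotides and is produced in dividing cells. Its sham arrays lay at 6.14, 6.31 and 6.45 and its infarcted arrays at 6.97, 7.19 and 7.68. The groups were separated by a gap wider than the sham range, and Rrm2 rose 1.93-fold (1.64 to 2.28, adjusted p = 3.44e-05, limma), with 8 of 9 probesets higher.

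Tyms, encoding thymidylate synthase, rose 2.09-fold (1.5 to 2.91, adjusted p = 0.00386, limma). Sham arrays lay at 4.33, 5.17 and 6.05, with their mean within background, and infarcted arrays at 5.9, 6.32 and 6.74. The value rests on 3 probesets, and 1 infarcted array fell within the sham range. The partner subunit Rrm1 differed by 0.1 (interval -0.08 to 0.28) and Tk1, thymidine kinase, by 0.09 (-0.26 to 0.44), and neither passed. With probesets averaged Tk1 passed (0.22, adjusted p = 0.0291, limma), and without infarcted replicates 4 and 5 it differed by -0.03.

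The MCM genes, whose products form the hexameric helicase of the replication fork, gave unequal results. Of the 6 subunits, Mcm5 and Mcm6 rose and the other 4 did not pass. Mcm5 went from 6.5, 6.82 and 6.96 to 7.07, 7.24 and 7.37 without overlap and rose 1.37-fold (1.2 to 1.57, adjusted p = 0.0021, limma). With probesets averaged the difference of Mcm5 was 0.25 in place of 0.46. Mcm6 went from 6.11, 6.23 and 6.45 to 6.38, 6.53 and 7.02, a rise of 1.31-fold (1.1 to 1.56, adjusted p = 0.0329, limma).

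The call for Mcm6 changed with the arrays and the processing. It was lost in 6 of 12 fits that dropped 1 array (sham replicates 2, 4, 5 and 6 and infarcted replicates 2 and 5), with adjusted p up to 0.0697 (limma). It was also lost with dim probesets left out (adjusted p = 0.0754), after centring (adjusted p = 0.0505) and after quantile normalization (adjusted p = 0.0536, limma). The differences of Mcm2, Mcm3 and Mcm7 were 0.05, 0.08 and 0.11. Mcm4 differed by -0.18 (adjusted p = 0.167, limma), and by 0.18 when the gene value was the mean over its probesets in place of the median.

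No loading factor passed, nor did the sliding clamp. Pcna, the clamp that holds DNA polymerases and a common marker of replicating cells, had sham arrays at 8.53, 8.71 and 8.92 and infarcted arrays at 8.57, 8.75 and 8.95. The difference was 0.02 (interval -0.16 to 0.2), all 10 probesets lay between -0.15 and 0.07, and the signal was well above background. Cdt1 and Cdc6, which load the helicase, differed by 0.05 and -0.24 and did not pass, Cdc6 at a signal within the background range. Gins2, part of the active helicase, differed by 0.23 and each infarcted array exceeded its sham mean (adjusted p = 0.0791, limma), and passed without sham replicate 1 (adjusted p = 0.0432) or without infarcted replicate 5 (adjusted p = 0.048).

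Of the mitotic cyclins, kinases and FoxM1, 5 of 7 measured members rose. Cdk1, the kinase that drives entry into mitosis, had sham arrays at 5.32, 5.91 and 6.13 and infarcted arrays at 6.63, 6.99 and 7.2. It rose 2.15-fold (1.76 to 2.64, adjusted p = 5.49e-05, limma) without overlap. Its cyclin partners followed: Ccna2 (cyclin A2) rose 2.03-fold (1.59 to 2.59, adjusted p = 0.000556) and Ccnb2 (cyclin B2) 1.67-fold (1.41 to 1.96, adjusted p = 0.000322, limma). Ccnb2 arrays lay at 6.11, 6.45 and 6.66 in sham and at 6.89, 7.18 and 7.29 in infarcted hearts, and no infarcted array of either cyclin gene fell within the sham range.

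Among the regulators of this engine, Plk1, a kinase needed for the bipolar spindle, rose 1.73-fold (1.43 to 2.1, adjusted p = 0.000557, limma) without overlap. Of the 8 Plk1 probesets 7 differed upwards but only 1 was called higher, with differences from -0.69 to 1.29. Foxm1, the transcription factor of mitotic genes, rose 1.49-fold (1.15 to 1.95, adjusted p = 0.0326, limma). Foxm1 no longer passed in 6 of the 12 fits that dropped 1 array (sham replicates 2 and 4 and infarcted replicates 1, 4, 5 and 6), with adjusted p up to 0.069 (limma). The kinase genes Aurka (0.24, adjusted p = 0.188) and Melk (0.09, adjusted p = 0.573) did not pass. Averaging probesets in place of taking the median gave 0.22 for Aurka and 0.25 for Melk, and both then passed (adjusted p = 0.0161 and 0.00722, limma). With dim probesets left out Aurka differed by -0.03 (adjusted p = 0.835) and Melk by 0.36 (adjusted p = 0.0332, limma).

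Of the genes for the spindle checkpoint and the onset of anaphase, 4 of 6 rose. Bub1, a checkpoint kinase at kinetochores, was at background in sham arrays (3.81, 4.15 and 5.12) and reached 4.63, 5.45 and 6.02 in infarcted arrays, a rise of 2.11-fold (1.44 to 3.09, adjusted p = 0.0082, limma). Ube2c, the ubiquitin-conjugating enzyme of the anaphase-promoting complex, rose 1.74-fold (1.33 to 2.27, adjusted p = 0.00584, limma), from 6.31, 6.61 and 7.15 to 7.02, 7.42 and 7.95. In both genes 4 of 6 infarcted arrays lay above every sham array.

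The checkpoint genes Bub1b (1.25-fold, adjusted p = 0.0257) and Mad2l1 (1.23-fold, adjusted p = 0.0399, limma) rose least, Bub1b from a sham mean within background. Both calls changed with the arrays and the processing. That of Bub1b ended without sham replicate 1, 3 or 4 or infarcted replicate 3, 4 or 6 (adjusted p up to 0.0564), and that of Mad2l1 without sham replicate 1, 4, 5 or 6 or infarcted replicate 1, 3, 4 or 5 (adjusted p up to 0.0853, limma). That of Bub1b also ended with probesets averaged (0.2, adjusted p = 0.0587), and that of Mad2l1 after centring (0.26, adjusted p = 0.0664) and after quantile normalization (0.26, adjusted p = 0.0631, limma). Cdc20, the activator of the anaphase-promoting complex, differed by -0.02 (interval -0.33 to 0.3) and Ttk, a checkpoint kinase, by 0.16 at background signal.

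Genes of the centromere and the chromosomal passenger complex formed the mitotic group with the fewest rises, 1 of 5. Cenpe, a kinetochore motor, rose 1.58-fold (1.27 to 1.96, adjusted p = 0.00532, limma), from 3.69, 4.15 and 4.42 to 4.35, 4.68 and 5.22. Its mean stayed within the background range in both groups, and 2 of its 46 probesets were called. Aurkb, the passenger kinase, came close (0.39, adjusted p = 0.0527, limma), with 5 of 6 infarcted arrays above every sham array. It passed without sham replicate 5 or 6 or infarcted replicate 2 (adjusted p = 0.0365, 0.047 and 0.0161, limma). Birc5 (survivin), its partner, differed by -0.08 and Cenpa, the centromeric histone H3 variant, by 0.02 (interval -0.2 to 0.23).

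Genes for chromosome proteins that pathologists use as markers of dividing cells rose clearly in RNA signal. Mki67, which coats mitotic chromosomes and is stained as Ki-67, had sham arrays at 5.13, 5.8 and 6.44 and infarcted arrays at 6.6, 6.9 and 7.38. It rose 2.27-fold (1.7 to 3.03, adjusted p = 0.000678, limma) without overlap, and all 16 of its probesets differed upwards, between 0.63 and 1.96. Top2a, the topoisomerase that untangles sister chromatids, rose 2.2-fold (1.65 to 2.92, adjusted p = 0.000751, limma), from 4.26, 5.2 and 5.46, with a mean within background, to 5.8, 6.11 and 6.53. Of the condensin I genes, Ncaph rose 1.33-fold (adjusted p = 0.0414, limma) and Ncapg, at background, differed by 0.39 (adjusted p = 0.0911, limma).

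The call for Ncaph also changed with the arrays and the processing. It was kept in 3 of 12 fits that dropped 1 array (sham replicate 5 and infarcted replicates 2 and 4) and lost in the other 9, with adjusted p up to 0.0898, and with dim probesets left out the difference was 0.04 (adjusted p = 0.891, limma). Ncaph did not pass after centring (adjusted p = 0.0591) or quantile normalization (adjusted p = 0.0566, limma) either. Ncapg passed without sham replicate 5 (adjusted p = 0.0265) or infarcted replicate 3 (adjusted p = 0.0391, limma).

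All 3 genes of spindle assembly rose. Tpx2, which nucleates spindle microtubules, went from 4.52, 4.92 and 5.2 to 5.56, 5.8 and 6.0 and rose 1.92-fold (1.62 to 2.29, adjusted p = 5.89e-05, limma). Kif11, the motor that pushes spindle poles apart, went from 4.52, 5.18 and 5.47 to 5.53, 5.84 and 6.25 and rose 1.78-fold (1.39 to 2.3, adjusted p = 0.00303, limma). Both were at background in sham hearts and separated the groups completely. With dim probesets left out the difference of Tpx2 was 0.39 in place of 0.94 (adjusted p = 0.0268, limma). Nusap1, a microtubule-bundling protein also at background in sham hearts, rose 1.5-fold (adjusted p = 0.021, limma).

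The genes of the central spindle and of cytokinesis, the last steps of division, showed the largest single rise and 5 rises among 6 members. Anln encodes anillin, the scaffold of the cleavage furrow. Its sham arrays lay at 4.28, 4.7 and 5.25, within background, and its infarcted arrays at 5.97, 6.24 and 6.76. It rose 2.93-fold (2.27 to 3.79, adjusted p = 2.31e-05, limma), and 16 of its 24 probesets were called higher.

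Kif20a, a kinesin of the central spindle, went from 5.01, 5.34 and 5.6 to 5.64, 5.97 and 6.15 without overlap and rose 1.51-fold (1.29 to 1.77, adjusted p = 0.00121, limma). Other genes of this group rose as well: Prc1, which bundles the central spindle, 2.06-fold (adjusted p = 0.00519), Racgap1 1.59-fold (adjusted p = 0.00712) and Ect2, which acts in cytokinesis, 1.5-fold (adjusted p = 0.00584, limma). The sham means of Prc1 and Racgap1 were within background. With dim probesets left out, Kif20a differed by 0.3 and Ect2 by 0.29 and neither passed (adjusted p = 0.166 and 0.0877, limma). Kif23, the kinesin that pairs with Racgap1, missed the threshold narrowly (0.4, adjusted p = 0.0525, limma), although all 6 infarcted arrays lay above its sham mean. It passed without sham replicate 6 (adjusted p = 0.0284) or infarcted replicate 2 (adjusted p = 0.0425, limma).

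**Figure D3:**
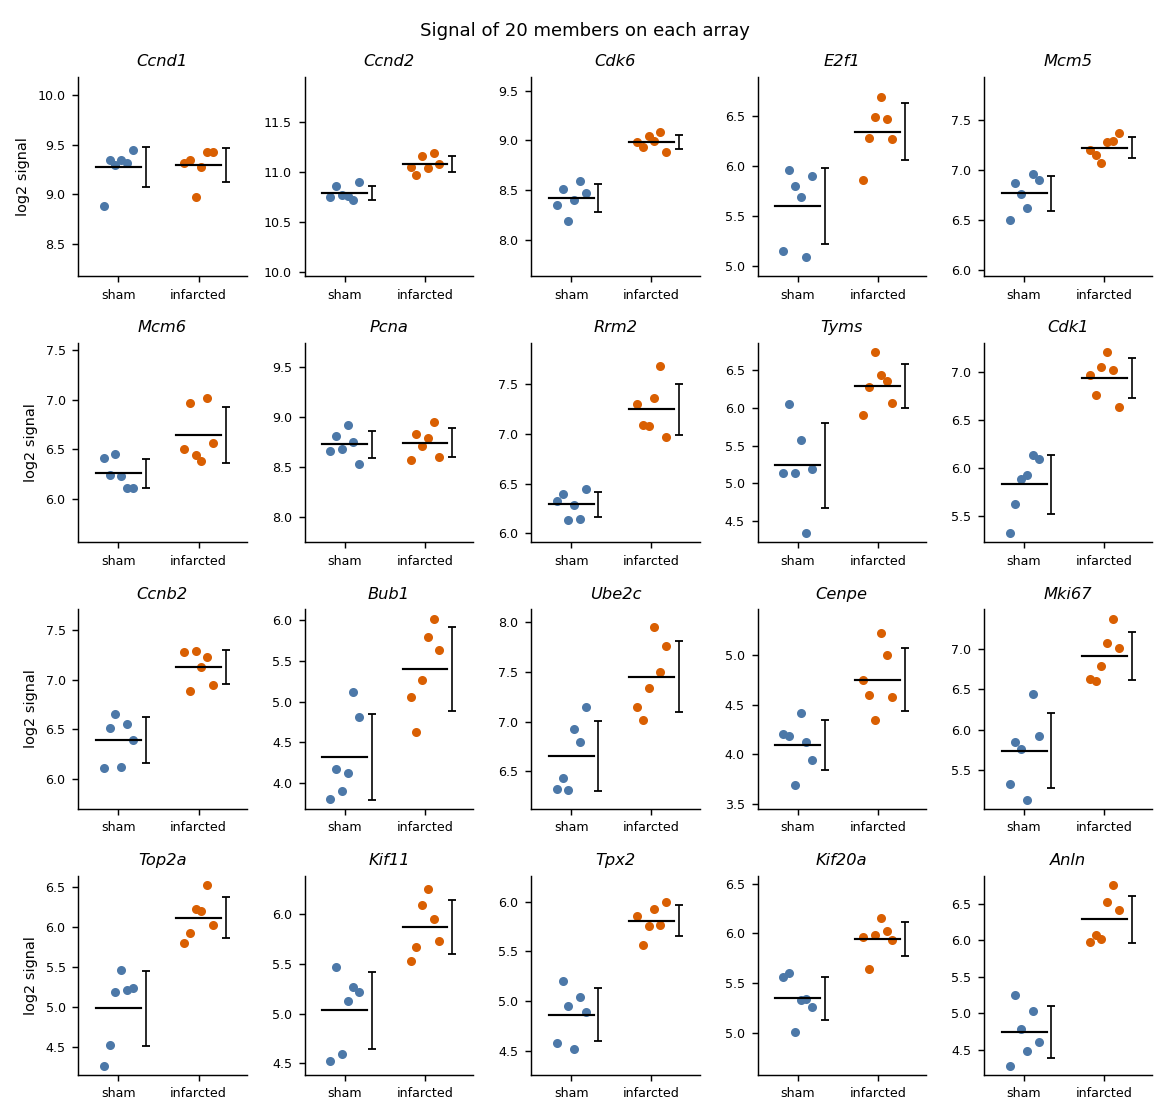
Log2 signal (y axis) of 20 members on each of the 6 sham and 6 infarcted arrays. Points are arrays, horizontal lines are group means and bars beside them are SD. Each y axis spans at least 2 log2 units. Ccnd1 and Pcna are level, while Rrm2, Cdk1, Mki67, Top2a and Anln step upwards without overlap between the groups.

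Single probesets, each covering part of a gene, were tested as well. Among mitotic members 125 of 530 probesets were called higher (23.6%) and 11 lower, beside 6.39% higher and 4.3% lower among all 241576 probesets. Among S phase members 22 of 166 were higher (13.3%) and 1 lower, and among G1 members 14 of 96 were higher (14.6%) and 0 lower. Some members that rose had few probesets called higher, with 1 of 8 in Plk1 and 2 of 11 in E2f1. Ect2 had 2 of 27, Bub1b 1 of 23 and Ncaph 1 of 17. In Mcm5, 5 of 21 were higher and 1 was lower. Most probesets of each of these genes still differed upwards. Without a threshold, 82.3% of mitotic, 75.3% of S phase and 68.8% of G1 probesets differed upwards. Probesets of a gene share their RNA and are not independent of each other.

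Cenpf, which encodes a large protein of the kinetochore and nuclear envelope, did not follow this pattern. As a gene it differed by -0.38 (adjusted p = 0.102, limma), with 0 of 6 infarcted arrays above its sham mean. Of its 21 probesets 10 were called lower and 1 higher, with differences from -1.81 to 1.33, which makes 10 of the 11 lower calls among mitotic probesets. In order of ID number, the first 14 probesets all differed downwards (-1.81 to -0.47), and the other 7 lay between -0.03 and 1.33.

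Averaged on each array, the signal of the first 14 Cenpf probesets lay at 6.61, 7.13 and 7.54 (lowest, median and highest) in sham and at 5.77, 6.06 and 6.27 in infarcted hearts, without overlap. The mean of the other 7 lay at 5.1, 5.23 and 5.35 in sham and at 5.2, 5.66 and 6.09 in infarcted hearts, with overlap between the groups. The division into 14 and 7 was chosen after the values were seen, and the files give no position for a probeset. A test of unequal change among probesets, also added afterwards and run without dim probesets, called Cenpf with the smallest p of all members (limma diffSplice F test, adjusted p = 5.19e-08 over 15004 genes). It called 19 of 55 members, beside 9.3% of the genes tested. Top2a and Cdk1 came next (adjusted p = 1.07e-06 and 2.02e-06, diffSplice F test). Over all their probesets, differences ran from -0.27 to 3.08 in Top2a and from -0.3 to 1.71 in Cdk1. Ccna2, Anln, Ube2c, Ccnb2, Kif11, Mcm5 and E2f1 were also among those called, so the fold changes of these genes do not hold evenly for all their probesets. As a gene Cenpf fell under other summaries, by 0.57 when probesets were averaged (adjusted p = 0.000339, limma) and by 0.73 once dim probesets were dropped (adjusted p = 0.002, limma).

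**Figure D4:**
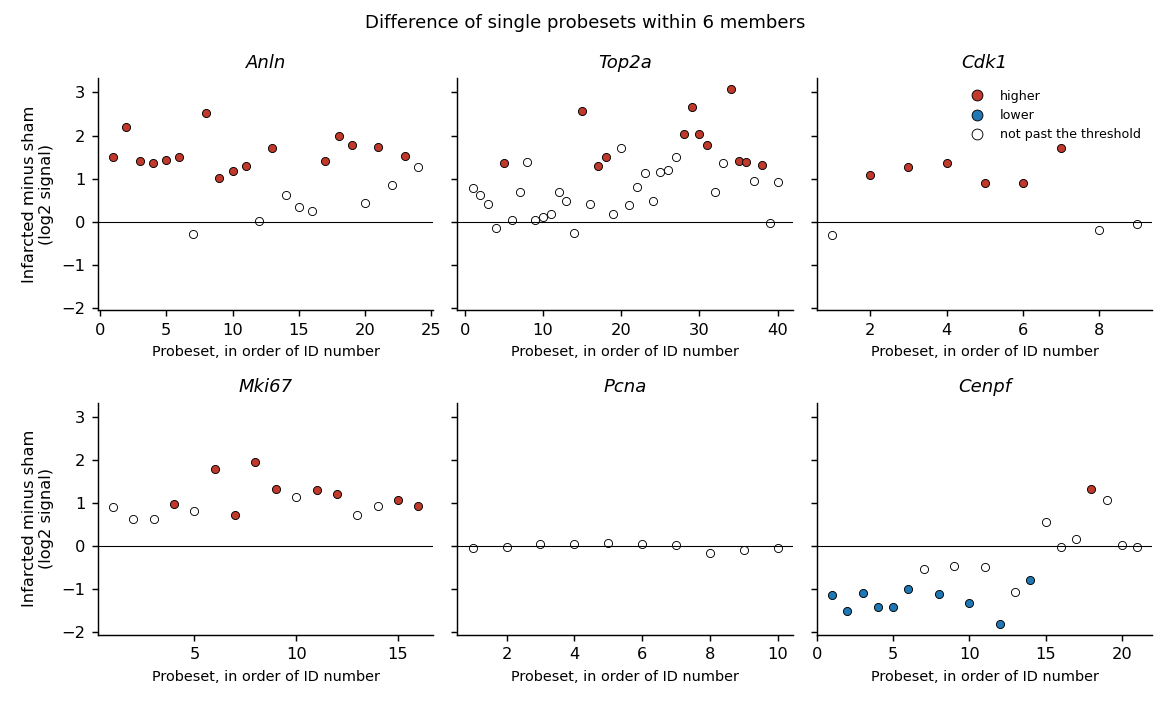
Difference between infarcted and sham hearts (y axis, log2 signal) for every probeset of 6 members, in order of ID number (x axis). Red points were called higher and blue points lower. All probesets of Mki67 lie above 0, those of Pcna lie between -0.15 and 0.07, and those of Cenpf divide into 14 below 0 and 7 between -0.03 and 1.33.

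Beyond the members, more mitosis genes than replication genes rose. Of 72 other mitosis genes, all measured, 22 rose (30.6%) and 2 fell, with a median of 0.34. Of 40 measured other replication genes (42 listed), 4 rose and 4 fell, shares close to those over all genes, with a median of 0.06. Both lists were written with earlier results of these data known.

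The mitosis genes with the smallest p were Cenpt, a constitutive centromere protein (1.47-fold, adjusted p = 0.000408), Smc4, the core of condensin (1.65-fold, adjusted p = 0.000557), and Arhgap11a (1.64-fold, adjusted p = 0.00075, limma). Each separated the groups. Spc24 and Sgo2a fell, by 0.4 and 0.35 on the log2 scale (adjusted p = 0.00608 and 0.0352, limma). Many of these genes were dim, with 45 of 72 at or below the background bound in sham hearts.

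Among the replication genes, Dut, the enzyme that removes dUTP, fell by 0.66 (adjusted p = 0.000207) and Ung, which removes uracil from DNA, fell by 0.55 (adjusted p = 0.00892, limma). Rpa2 and Pole also fell. The risers were Orc6 of the origin recognition complex (1.31-fold, adjusted p = 0.00677, limma), Pole2, Chek1 and Slbp.

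Calls in the lists of cycle regulators went in both directions. The share of CDK inhibitors called, 12.5% each way, was near that over all genes (10.1% higher and 10.2% lower). Of these 8 genes, Cdkn1c (p57) fell by 0.43 (adjusted p = 0.0143) and Cdkn3 rose 1.42-fold (adjusted p = 0.0225, limma), and the other 6 did not pass. Of 17 pocket protein, E2F and MuvB genes, which include activators as well as repressors, 4 fell and 1 rose. Lin52, of the MuvB core, fell by 0.51 (adjusted p = 0.00192), Tfdp2, an E2F partner, by 0.44 (adjusted p = 0.00215), E2f6, a repressor, by 0.36 (adjusted p = 0.00297) and Rbl2 (p130) by 0.34 (adjusted p = 0.00738, limma). E2f5 rose 1.27-fold (adjusted p = 0.0135, limma).

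Of 8 measured anti-proliferative genes, 2 rose, 2 fell and 4 did not pass, beside 10.1% higher and 10.2% lower over all genes. Btg1 rose 1.38-fold (adjusted p = 0.000546) and Gas1, a growth arrest gene, 1.4-fold (adjusted p = 0.0052, limma). Gadd45a (-0.35, adjusted p = 0.0329) and Tob2 (-0.37, adjusted p = 0.036, limma) fell.

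The rise of mitotic members was seen on every infarcted array, but unequally. The mean deviation of the 31 mitotic members from their sham means lay between 0.36 (infarcted replicate 2) and 0.79 (infarcted replicate 5), and between -0.28 (sham replicate 1) and 0.18 (sham replicate 5) in sham hearts. For S phase members 5 of 6 infarcted arrays (0.12 to 0.35) lay above every sham array (-0.11 to 0.13). The groups overlapped for G1 members (0.05 to 0.19 against -0.18 to 0.11). Infarcted replicates 4 and 5 held the highest infarcted value of 11 and 12 of the 31 mitotic members.

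The lists of adipocyte and atrial markers were high on these arrays too. Infarcted replicates 4 and 5 also had the highest mean deviations of 8 adipocyte markers (0.77 and 2.4, the other infarcted arrays from -0.13 to 0.52) and of 6 atrial markers (1.94 and 1.35, the others from 0.32 to 1.12). Of the atrial list Nppa and Dkk3 passed, and Myl4, Myl7, Sln and Bmp10 did not. Nppa rose by 2.04 with an SD of 0.07 among infarcted arrays, so it did not set replicates 4 and 5 apart. Without infarcted replicates 4 and 5, 22 members rose and 1 fell, Cenpf (-0.55, adjusted p = 0.0269, limma). Foxm1, Bub1, Bub1b, Mad2l1, Nusap1 and Mcm6 then no longer passed (adjusted p from 0.0517 to 0.152, limma). Whether these samples held other tissue, and its part in the result, was not tested.

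Most markers of fibroblasts, of macrophages and monocytes, and of smooth muscle cells and pericytes rose beside the mitotic members. All 10 fibroblast markers rose, with a mean log2 signal of 8.89 to 9.22 in sham and 10.35 to 10.77 in infarcted hearts. Their rises were unequal, from 0.37 for Dcn to 3.08 for Postn (periostin, 8.45-fold, adjusted p = 2.78e-09, limma) on the log2 scale. Of 14 macrophage and monocyte markers 13 rose (7.48 to 7.75 against 8.2 to 8.67), with Mpeg1 3.16-fold higher (adjusted p = 7.41e-06, limma). Of 8 smooth muscle and pericyte markers 5 rose (8.49 to 8.92 against 9.0 to 9.22), for example Tagln (1.66-fold, adjusted p = 0.000376, limma). Myh11, Rgs5 and Kcnj8 of the same list differed by -0.14, 0.02 and -0.07 on the log2 scale and did not pass.

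Endothelial and cardiomyocyte markers moved little. Of 10 endothelial markers Erg rose 1.27-fold (adjusted p = 0.0257, limma) and the others did not pass (list mean 9.69 to 9.96 against 9.8 to 10.05). None of 10 cardiomyocyte markers passed in limma, 4 had an unadjusted p under 0.05, and Myh6 had the smallest p (-0.18, adjusted p = 0.0688). Their list mean was slightly lower on every infarcted array than on any sham array (13.21 to 13.24 in sham against 13.09 to 13.18).

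Most markers of lymphocytes, NK cells and neutrophils were dim. None of 9 lymphocyte and NK cell markers passed in limma (0 with an unadjusted p under 0.05, list mean 4.88 to 5.41 against 5.16 to 5.47), nor did any of 7 neutrophil markers (2 with an unadjusted p under 0.05, 4.2 to 5.27 against 4.59 to 5.09), most of both lists lying at or below the background bound. Of 7 erythroid markers, 3 of them within background in sham hearts, 2 fell (5.57 to 5.97 against 5.39 to 5.63). These were Rhag (-0.44, adjusted p = 0.0246), with a sham mean of 3.57 within background, and the brighter Alas2 (-0.49, adjusted p = 0.0267, limma), with a sham mean of 8.64. Of 6 atrial markers 2 rose, led by Nppa (4.1-fold, adjusted p = 2.78e-09, limma). None of 8 adipocyte markers passed (1 with an unadjusted p under 0.05). In bulk tissue, more dividing cells and more RNA of these genes per cell cannot be told apart, and the part of the cell types in the rise of mitotic genes was not tested.

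**Figure D5:**
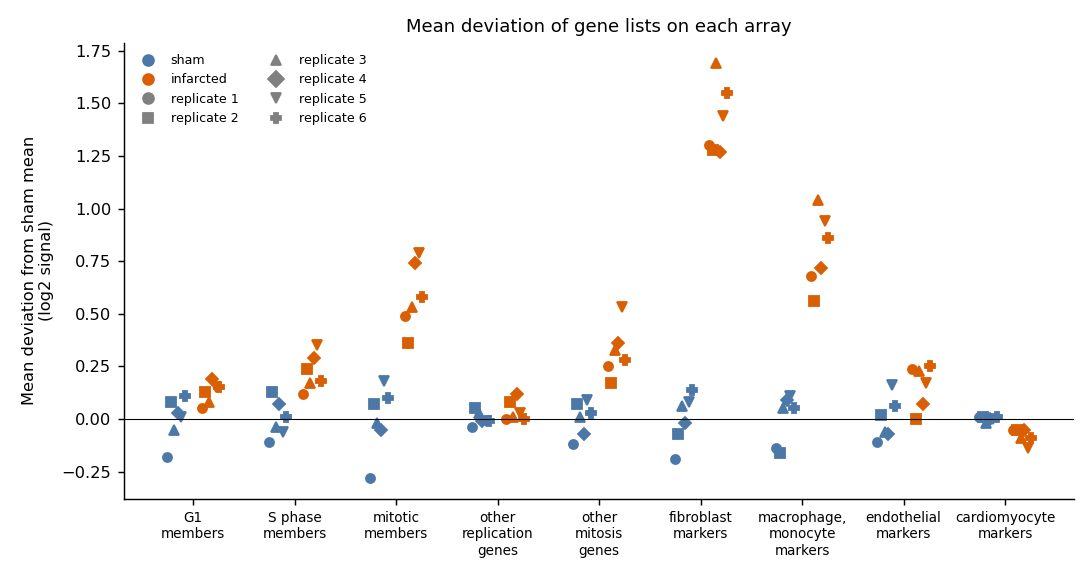
Mean deviation from the sham mean (y axis, log2 signal) over the genes of each list on each array. Colours are the groups and symbols the replicate numbers, which are not said to pair hearts. Mitotic members, other mitosis genes, fibroblast markers and macrophage markers separate the groups upwards. Cardiomyocyte markers separate them downwards by a small margin, while other replication genes and endothelial markers overlap.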

How the data were processed

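Members, lists and tests were chosen with earlier results of these data known. The deposited table holds one log2 value per probeset and array, made by the authors with Affymetrix Power Tools, per the submitters' processing notes. How they were normalized is not stated in those notes, and the log2 scale was read from the value range (1.52 to 14.37). Of 241576 probesets, 212097 had 1 platform gene symbol and were used, and 18 rows naming a member beside another gene were left out. Symbols were updated with RefSeq (2742 of 20416). Gene values are medians over probesets.

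Sham and infarcted arrays were tested for a difference in limma 3.58.1 (R 4.3.3), two-sided and without a block, and p-values were adjusted by Benjamini-Hochberg over 20352 genes or 241576 probesets at a threshold of 0.05. Dim means under the 30th percentile. Scripts were tested on simulated data. Per-array values were given by rule for the smallest-p members of each role and for Mki67, Pcna and Ccnd1. From each other list, the members with the smallest p were named, and any others after their values were seen. In RefSeq, 25 members overlap another gene, and whether probesets tell strands apart is not given in the sources used here. Same-numbered arrays did not deviate together (correlations from -0.051 to 0.101). Figures used matplotlib 3.10.9.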

Additional observations from a re-analysis of the deposited data

Results flagged for a closer look

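In 6 of 110 groups of 6 arrays (55 members, sham and infarcted), 1 array stood apart from the other 5 by more than Dixon's 95% critical value. Chance alone flags about 1 in 20 groups. Cyclin D genes accounted for 3 of them: Ccnd1 was low in sham replicate 1 (8.88, next 9.3 on the log2 scale) and in infarcted replicate 3 (8.97, next 9.28), and Ccnd3 was low in infarcted replicate 3 (8.79, next 9.15). Cdk4 was high in infarcted replicate 2 (10.51, next 10.21). Birc5 was high in infarcted replicate 4 (5.83, next 5.28), the single infarcted array above its sham mean. Prc1 was high in infarcted replicate 5 (6.35, next 5.64).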

How the results depend on the processing

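The counts of called members stayed within 1.5 times the reported count under every alternative run. Of 55 members, 28 were called as reported, 35 with probesets averaged, 26 without dim probesets and 25 after centring and after quantile normalization. Trend and robust variance gave 29, and leaving out infarcted replicates 4 and 5 gave 23. Without dim genes, 27 of the 48 members still tested were called. The counts of 35, 26 and 23 each include 1 fall, that of Cenpf. With 1 array dropped at a time the count ran from 23 to 29. Of the 28 called members, 19 passed in every setting that tested them and none changed sign. Cenpe and Prc1, among the 19, were not tested when dim genes were left out. The labels do not say that replicate numbers pair hearts, and 4 of 12 arrays correlated best with their own number. With the replicate number as a block 25 members were called: Mcm6, Foxm1, Mad2l1 and Ncaph no longer passed and Aurkb did. With probesets averaged, Gins2, Aurkb, Kif23 and Ncapg passed too (adjusted p = 0.0452, 0.0147, 0.0168 and 0.0433, limma), and Cdk1 differed by 0.74 and Ect2 by 0.37. Mitotic counts ran from 17 to 26, S phase counts from 3 to 6, and G1 stood at 3 throughout. Dim signal limits 15 members in sham hearts.

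Sign changes occurred among members that did not pass, and their cause was not tested. With probesets averaged, Ccnd3 was 0.04, Cdk4 -0.02, Ccne2 0.0, Mcm4 0.18, Pcna -0.01, Cdc20 0.17 and Birc5 0.08. Without dim probesets, Ccne1 was -0.0, Ccne2 0.18, Cdc6 0.02, Pcna -0.02, Aurka -0.03, Cdc20 0.29 and Birc5 0.25. After centring, Ccnd1 was -0.02, Cdk2 -0.03, Pcna -0.03 and Cenpa -0.03, and after quantile normalization Ccnd1 was -0.0, Cdk2 -0.03, Pcna -0.01 and Cenpa -0.01. Without infarcted replicates 4 and 5, Ccnd1 was -0.01, Cdt1 -0.02, Pcna -0.05 and Tk1 -0.03. With 1 array dropped, ranges crossed 0 for Ccnd1 (-0.06 to 0.09), Ccnd3 (-0.07 to 0.07), Cdk2 (-0.03 to 0.05), Cdt1 (-0.02 to 0.11), Mcm3 (-0.04 to 0.16), Pcna (-0.02 to 0.06), Cdc20 (-0.1 to 0.09) and Cenpa (-0.06 to 0.05).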
